A study of Drosophila melanogaster with 8 samples.

Results

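Adult muscle and adult whole flies of mutant Drosophila melanogaster were compared by RNA sequencing, using 4 of the 8 libraries of the study. The mutant group is a knockout of anw per the design text, and the labels call it only mutant. They give no allele, age or sex, no name for the dissected muscle, and no number of flies per library. The mutant libraries are 2 of muscle and 2 of whole flies, and the 2 wildtype libraries of each tissue serve as a reference for the tissue difference. The libraries were taken by their tissue and genotype labels, and genes were matched between the tables of the 2 tissues by symbol, which paired 13425 protein-coding genes. Neither table nor the reference pairs the symbol anw with a gene, so the genotype labels were not checked against RNA of the targeted gene.

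Muscle fibres contract through sarcomeres, in which myosin thick filaments slide along actin thin filaments anchored at Z-discs, under the control of calcium acting on troponin. An adult fly carries fibrillar flight muscle, which is activated by stretch and packed with mitochondria, and tubular muscle, which moves legs, jump and gut. A whole fly includes that muscle along with ovaries or testes, eyes, gut, fat body and the nervous system, so the comparison sets a tissue against a mixture that contains it.

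Expression is given as FPKM, which divides a gene's reads by gene length and by a total for the library. The authors scaled the 2 tables separately, so no test was run between tissues, and levels across tissues are described by each library's FPKM, by percentile rank within a library and by a rule of size. A gene was past that rule when the lowest library of a tissue was at least 4 times the highest of the other, each as FPKM + 1. Log2 differences are mutant muscle minus mutant whole fly as log2(FPKM + 1), a scale on which folds of weakly expressed genes come out too small, and their errors are SE over n = 2 libraries per tissue. The labels do not say whether repeats were separate flies, so these errors may be technical. In such mixed samples fewer cells of a type and less RNA per cell cannot be told apart. Where the libraries of the tissues are said not to overlap, this describes the named genes only. The share of all genes without overlap was not counted.

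Reads assigned to genes numbered 18580751 and 20655630 in mutant muscle and 22210197 and 20136878 in mutant whole flies. Muscle RNA was concentrated in fewer genes. The 10 most abundant matched genes held 11.4% and 14.6% of FPKM in muscle against 7.15% and 6.65% in whole flies, and the median FPKM was 3.89 and 2.77 against 7.76 and 7.75. Mitochondrial genes took 16.7% and 25.1% of reads in muscle against 11.1% and 9.30% in whole flies.

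The mutant muscle libraries were not alike. Across genes the log2 values correlated at 0.915 between the muscle repeats and at 0.994 between the whole-fly repeats, and 840 genes lay at least 4-fold apart between the muscle repeats, 830 of them higher in repeat 1, against 0 genes between the whole-fly repeats. Male reproductive genes set the repeats apart. Of 39 testis genes, 32 reached 1 FPKM in muscle repeat 1 and 2 in muscle repeat 2, against 34 in each whole-fly library. Their summed reads were 0.217% and 0.004% in muscle and 0.211% and 0.220% in whole flies. Of 57 genes of male seminal fluid, 46 and 8 reached 1 FPKM in muscle, against 54 in each whole-fly library. All 11 Y-linked fertility genes had reads in muscle repeat 1 and 0 reads in muscle repeat 2. What part this gap has in the results below was not tested beyond the values without each library.

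The defining muscle genes were high in all 4 mutant libraries and higher in muscle. Mhc (FBgn0264695, chromosome 2L, 16766566 to 16788766), the muscle myosin heavy chain, had 1087 and 1379 FPKM in muscle and 409 and 429 in whole flies. Act79B (FBgn0000045, 3L, 21985210 to 21987190), an actin of tubular muscle, had 3360 and 3990 against 1279 and 1201. Mlc1 (FBgn0002772, 3R, 27657078 to 27660177), the alkali light chain of myosin, had 2032 and 1988 against 831 and 791. Both muscle libraries lay above both whole-fly libraries for all 3 genes. The log2 differences were 1.55 ± 0.17 for Mhc, 1.56 ± 0.13 for Act79B and 1.31 ± 0.04 for Mlc1, which is under the 4-fold rule for each. In rank, Act79B stood at 12 and 9 among the 13425 genes in muscle and at 80 and 75 in whole flies, Mlc1 at 26 and 27 against 137 and 135, and Mhc at 67 and 56 against 235 and 216. The markers fixed for muscle were thus present and ranked higher in the libraries labelled muscle.

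Whole flies held far more genes past the rule of size than muscle did. Of 10445 genes with at least 1 FPKM in both libraries of a mutant tissue, 31 (0.297%) were higher in muscle and 815 (7.8%) were higher in whole flies. Of the 10445 genes, 7778 passed in both tissues, 2410 in whole flies only and 257 in muscle only. Signs and medians of lists rich in genes of 1 tissue are thus partly set by this filter. The counts of 31 and 815 cannot change without it, since any gene past the rule of size also passes the filter. The median log2 difference over the 10445 genes was -0.87, with quartiles of -1.48 and -0.20, and 2124 genes were positive. When the tissues were scaled to the same median, this median became -0.01 and the counts 213 and 337, so list medians below are read relative to -0.87. No gene with at least 1 FPKM in both muscle libraries was without reads in whole flies (0 genes), while 37 genes with at least 1 FPKM in both whole-fly libraries had 0 reads in both muscle libraries. Without muscle repeat 1 the counts were 100 and 1932, and without muscle repeat 2 they were 32 and 901. At the edge of the rule, Capa had a smallest log2 gap of 2.00003 and Zasp66, a Z-disc gene, of 1.96 on the muscle side, and Ski6 had a smallest ratio of 4.02 and Smn of 3.99 on the whole-fly side.

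**Figure D1:**
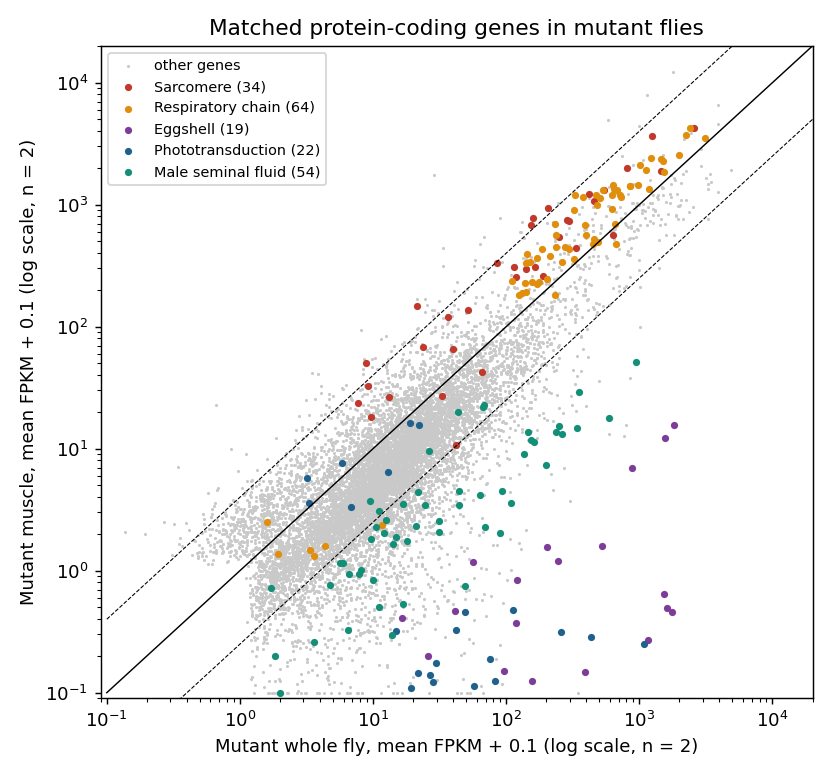
Mean FPKM + 0.1 of each gene in mutant whole flies (horizontal axis, log scale) and mutant muscle (vertical axis, log scale), n = 2 libraries each. The solid line marks equal values and the dashed lines a ratio of 4; most sarcomere and respiratory chain genes lie above the solid line, and all 19 eggshell genes lie below the lower dashed line.

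Sarcomere genes were higher in muscle as a broad group. Of 35 matched genes 34 passed the filter, with 30 positive, 4 negative genes and 0 past the rule in either direction. Their median was 1.29. Together they took 9.82% and 10.5% of reads in muscle and 3.53% and 3.52% in whole flies. The largest differences belonged to the giant titin-like proteins. The gene bt, projectin, had 103 and 195 FPKM in muscle and 15.5 and 26.9 in whole flies, a difference of 2.73 ± 0.59. The gene sls, Sallimus, had 36.5 and 64.9 against 6.90 and 10.5, a difference of 2.38 ± 0.49. In both genes every muscle library exceeded every whole-fly library, but the muscle repeats differed from each other by more than the whole-fly mean. Zasp66, Mf (myofilin) and Mlp84B, a muscle LIM protein, followed with 2.25 ± 0.27, 2.15 ± 0.19 and 2.11 ± 0.32.

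Thin filament genes showed smaller and mixed differences. The troponin T gene up and the troponin I gene wupA stood at 1.27 ± 0.09 and 1.24 ± 0.04, and the tropomyosin genes Tm2 and Tm1 at 1.38 ± 0.09 and 0.46 ± 0.20. The flight muscle actin Act88F had 2445 and 1311 FPKM in muscle and 1482 and 1448 in whole flies. Its groups overlapped, with muscle repeat 1 above and repeat 2 below both whole-fly libraries. The troponin C gene TpnC47D had 11.5 and 9.90 FPKM in muscle and 40.3 and 42.8 in whole flies, a difference of -1.86 ± 0.11, the lowest of the sarcomere list. TpnC4, the troponin C of flight muscle, had 800 and 678 against 291 and 298. The actin and troponin C genes are close copies of each other within each family, so reads could be split among them in a way the tables do not show.

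By type of muscle, the 5 genes of fibrillar flight muscle were all positive, with a median of 0.98. The 7 actin and troponin C forms of tubular muscle held 3 positive and 4 negative genes and had a median of -0.20. Relative to the median of all genes, both lists were higher in muscle, at 1.85 for flight and 0.67 for tubular muscle. The tubular value stayed between 0.19 and 0.97 over 10 alternatives. The selector gene of flight muscle fate, salm, had 8.18 and 7.53 FPKM in muscle and 1.33 and 2.32 in whole flies. Scp1, a sarcoplasmic calcium-binding protein among the 10 most abundant genes of muscle, had 3947 and 4885 against 1085 and 893. Both genes were higher in every muscle library.

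**Figure D2:**
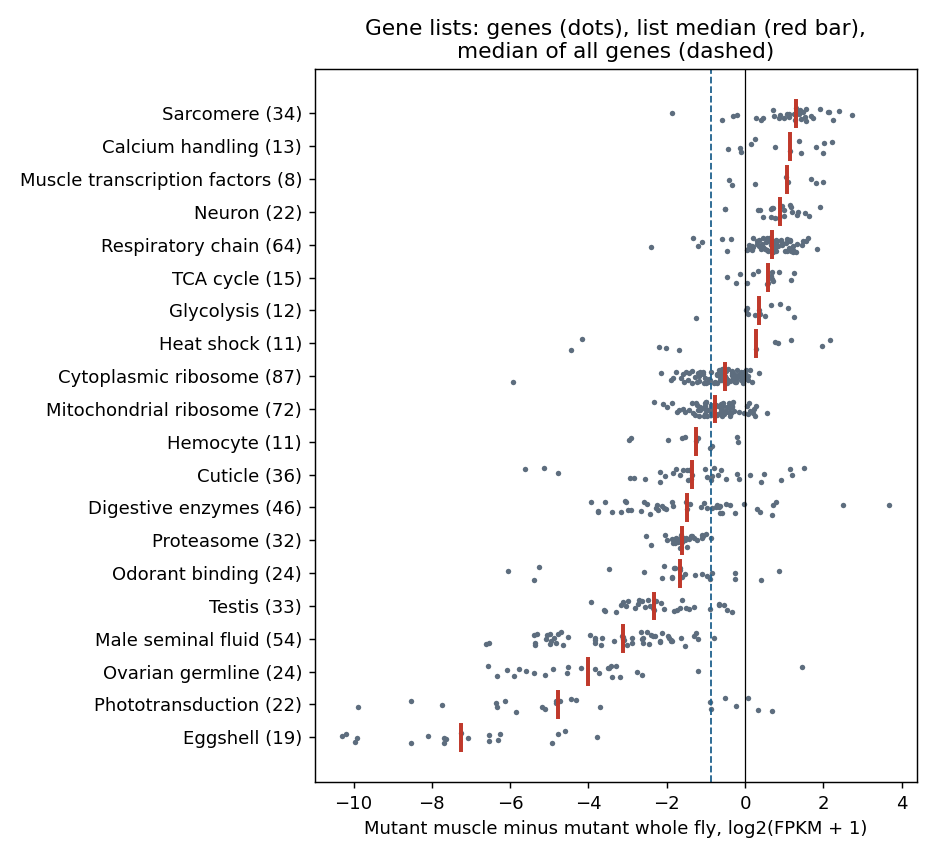
Log2 difference, mutant muscle minus mutant whole fly, of genes that passed the filter in 20 of the 37 lists (dots), with list medians (red bars) and the median of all genes at -0.87 (dashed). The numbers in brackets count the genes drawn; sarcomere genes have the highest median, 1.29, and eggshell genes the lowest, -7.25.

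Calcium handling and membrane excitation genes also ranked higher in muscle. The 13 of 15 that passed had a median of 1.13, 10 were positive and 0 were past the rule. All 13 had a higher percentile in muscle, with median percentiles of 85.6 and 55.5, against 5047 of all 10445 genes. A percentile can rise where FPKM falls, as it did for the 3 negative members, since muscle RNA was concentrated in fewer genes. The ryanodine receptor RyR, the calcium release channel, had 46.1 and 62.0 FPKM against 11.4 and 14.1, and the pump SERCA had 1072 and 1195 against 393 and 444. The potassium channel slo and the calcium channel subunit Ca-alpha1D reached 2.22 ± 0.41 and 2.01 ± 0.32. The muscle libraries of all 4 genes lay above those of whole flies. Cam (calmodulin) at -0.13 ± 0.10 and the IP3 receptor Itpr at -0.45 ± 0.21 had negative differences, though both lay above the median of all genes.

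Regulators of muscle fate were higher in muscle. Of 11 transcription factor genes 8 passed, with a median of 1.07, 6 positive and 0 past the rule. The gene vg, a selector of flight muscle, had 13.3 and 15.2 FPKM in muscle and 2.81 and 2.83 in whole flies, a difference of 1.996 ± 0.091. The myogenic factor nau had 3.51 and 5.76 against 0.377 and 0.791, and Mef2, the general activator of muscle genes, 16.1 and 19.5 against 7.79 and 8.28. All muscle values of these 3 genes lay above all whole-fly values, a trait whose share among all genes was not counted.

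The splicing regulators of muscle bear on a mutant that the series title ties to alternative splicing, though FPKM counts a gene's total RNA and not its splice forms. Muscleblind (mbl) and Rbfox1 were higher in muscle at 1.27 ± 0.30 and 1.11 ± 0.32, and how, a STAR-family protein, at 0.56 ± 0.26. The Bruno gene bru1, which directs flight muscle splicing and also acts in the ovary, went the other way, with 17.0 and 11.4 FPKM in muscle and 63.2 and 58.8 in whole flies. Its wildtype difference was -1.97 against -2.05 ± 0.28 in mutants.

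Genes of muscle attachment and of the muscle side of the synapse stood nearer to zero. The 14 integrin adhesion genes had a median of -0.14, above the median of all genes, with 6 positive and 0 past the rule. They ran from 1.36 ± 0.30 for if, an integrin alpha chain, to -1.23 ± 0.19 for scb, another. The 5 of 6 glutamate receptor genes that passed had a median of 0.24, with Neto, the auxiliary subunit, at 0.98 ± 0.25 and GluRIIC at -0.54 ± 0.22.

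Genes of energy metabolism were higher in muscle relative to other genes. Of 64 nuclear genes of the respiratory chain that passed, 57 were positive, with a median of 0.69 and 0 past the rule. They took 9.9997% and 9.05% of reads in muscle and 5.47% and 5.03% in whole flies. UQCR-Q, a subunit of complex III, had 1078 and 1302 FPKM against 329.5 and 332.8. The ATP synthase genes ATPsynC and blw were among the 10 most abundant in muscle, at 4252 and 4251 and at 3772 and 3689 FPKM, above their whole-fly values of 2503 and 2332 and of 2316 and 2206. ND-24L, a copy of a complex I gene, was among the 7 negative members, at 4.51 and 0 FPKM against 13.4 and 9.70, where the muscle repeats disagreed.

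The 15 genes of the tricarboxylic acid cycle had a median of 0.57, 12 of them positive, and the 12 glycolysis genes a median of 0.36, 11 of them positive. SdhB, a subunit of succinate dehydrogenase, had 791 and 885 FPKM in muscle and 363 and 337 in whole flies, and Ald1, aldolase, 1436 and 1361 against 594 and 588. Hex-C, the hexokinase best known from fat body, was lower in muscle, at 50.1 and 49.0 against 120 and 120, with groups that did not overlap. In the list of the glycerophosphate shuttle and glycogen only 2 of 9 were positive, with a median of -1.29, and relative to all genes the list turned from -0.43 to 0.42 without muscle repeat 2. Gpdh1 and Gpo1, its main enzymes, had 0.44 ± 0.13 and 0.74 ± 0.14. Copies such as Gpo3 were among the negative members, with 9.75 and 0.118 FPKM in muscle and 9.92 and 12.99 in whole flies, so that muscle repeat 1 lay just under the whole-fly values and repeat 2 far under them.

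Proteasome genes were lower in muscle, and ribosomal protein genes lay near other genes. All 32 proteasome genes were negative, with a median of -1.62, and 2 were past the rule. Prosalpha4, a core subunit, had 33.4 and 30.9 FPKM against 231 and 156. Cytoplasmic ribosomal proteins had a median of -0.51, with 78 of 87 negative, and the 72 mitochondrial ribosomal proteins a median of -0.76, both near the median of all genes. Without muscle repeat 2 these 2 ribosomal lists lay on the other side of that median, at -0.10 and -0.11 relative to it. RpS5b, a ribosomal protein copy known from the ovary, was past the rule, at 5.30 and 25.9 FPKM in muscle and 902 and 688 in whole flies. The 6 Mcm2 to Mcm7 helicase genes of DNA replication (with dpa as Mcm4) and the 8 chaperonin genes CCT1 to CCT8, sets chosen after their values were seen, were all past the rule on the whole-fly side, with medians of -4.06 and -2.89.

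The 31 genes past the rule in muscle were mostly not sarcomeric. Only 4 belong to any of the lists, and 13 have no name beyond a CG number. CG45080 (FBgn0266455, 3R, 13318991 to 13319270), a short uncharacterised gene, led with 1105 and 2381 FPKM in muscle and 20.8 and 36.6 in whole flies, a difference of 5.83 ± 0.68. CG16826, also uncharacterised, was the most abundant matched gene of both muscle libraries, at 10267 and 14085 against 1677 and 1911. Also among the most abundant were the neighbours whe and lcs on the X chromosome, at 6028 and 9882 and at 3785 and 6149 FPKM in muscle, against 1105 and 1180 and against 549 and 621. These 4 genes were higher in every muscle library, which the rule of size itself requires.

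Of the 31 genes 4 encode neuropeptides. They were Proc (proctolin, which contracts insect muscle), Nplp1, FMRFa and Capa. Proc (FBgn0045038, 2L, 7864642 to 7871432) had 81.4 and 105 FPKM in muscle and 7.65 and 8.32 in whole flies, a difference of 3.38 ± 0.19. Nplp1 had 71.1 and 87.5 against 11.1 and 11.8, FMRFa 29.3 and 28.0 against 4.69 and 3.29, and Capa 45.99 and 63.8 against 9.56 and 10.7. In a wider set of 20 neuropeptide genes, chosen after these values were seen, 17 passed, 11 were positive and the median was 0.55, so most members were not past the rule. Among those not past it, Dh31 and AstA stood at 2.23 ± 0.23 and 1.86 ± 0.17, and AstC and Ms at -0.34 ± 0.12 and -1.66 ± 0.10. AstC lay above and Ms below the median of all genes.

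Channel and synapse genes were also among the 31. ClC-a, a chloride channel, had 120 and 214 FPKM against 19.7 and 22.8, the kainate-type glutamate receptor clumsy 28.2 and 55.3 against 3.28 and 3.44, and the chloride channel pHCl-1 19.9 and 31.4 against 3.18 and 3.90. Arc1, a capsid-like gene studied at the neuromuscular synapse, had 434 and 516 against 61.9 and 64.3. Neuronal markers were higher in muscle too. Of 22 neuron genes 20 were positive, with a median of 0.89 and 0 past the rule. All 22 had a higher percentile in muscle, also the 2 negative ones, against 5047 of all 10445 genes. Their summed reads were 0.235% and 0.288% in muscle and 0.0909% and 0.122% in whole flies, and defining genes were present, with Gad1, the GABA-synthesising enzyme, at 70.7 and 82.3 FPKM against 18.4 and 20.6. All 5 glial genes were positive, with repo at 8.23 and 10.2 against 2.60 and 2.93. Of the photoreceptor genes, ninaE and Arr2 were under 1 FPKM in both muscle libraries, while 7 of 23 reached 1 FPKM in each. The part of RNA from nervous tissue in these differences was not tested.

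Immune and digestive genes were also among the 31. LysP, a lysozyme, had 374 and 511 FPKM in muscle against 29.2 and 37.8, Mal-B1, a maltase, 121 and 177 against 25.4 and 25.0, and DptA, an antimicrobial peptide, 41.4 and 49.0 against 9.03 and 7.63. The gene w, the White pigment transporter, had 23.3 and 22.1 FPKM in mutant muscle, 0.491 and 0.622 in mutant whole flies, and 0.0398 and 0.0207 in wildtype muscle. Further named members were Rgk3, a GTPase of the Rem, Gem and Kir family, Vha36-3, a subunit of the vacuolar proton pump, and twit, at 2.63 ± 0.45, 2.50 ± 0.31 and 2.42 ± 0.15. The gene w passed the rule in mutants and not in wildtypes, whose difference was -0.28. A difference of stock and an effect of genotype cannot be told apart here.

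**Figure D3:**
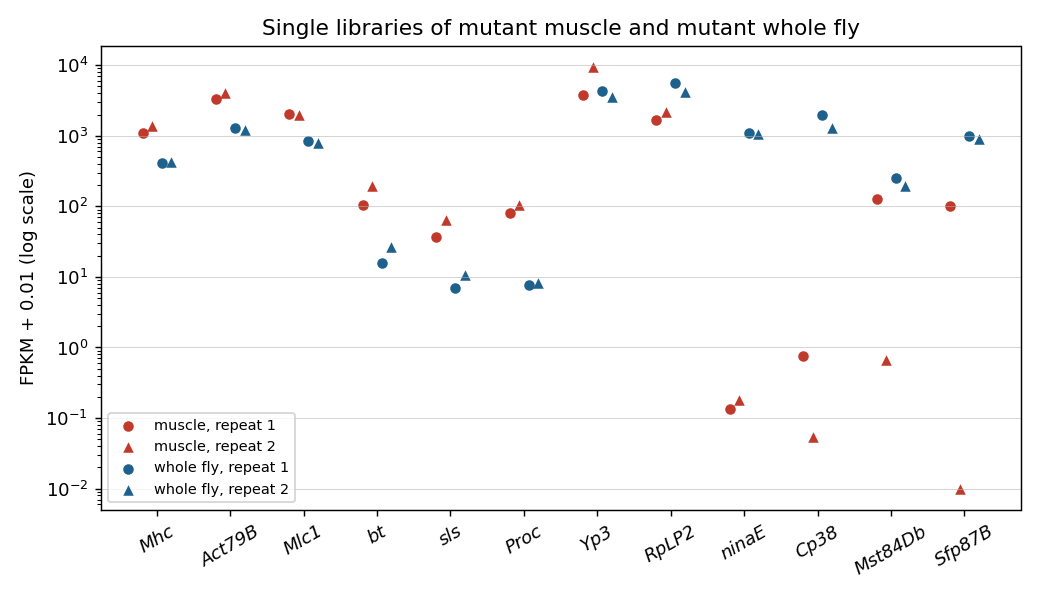
FPKM + 0.01 (log scale) of 12 genes in each mutant library, muscle in red and whole fly in blue, repeat 1 as circles and repeat 2 as triangles. Sarcomere genes and Proc are higher in both muscle repeats, ninaE and Cp38 are over 1000 FPKM in whole flies and under 1 FPKM in muscle, and Mst84Db and Sfp87B are over 100 FPKM in muscle repeat 1 and under 1 FPKM in repeat 2.

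Eggshell genes gave the largest differences of all lists. All 19 chorion and vitelline membrane genes were past the rule on the whole-fly side, with a median of -7.25. Cp15 (3L), a chorion protein, had 0.288 and 0.425 FPKM in muscle, from 3 and 4 reads, and 2163 and 1332 in whole flies, a difference of -10.29 ± 0.36. Cp38 had 0.751 and 0.0439 against 1946 and 1290. The vitelline membrane gene Vm34Ca had 0.403 and 30.5 FPKM in muscle against 1984 and 1684, so muscle repeat 2 held more of it than repeat 1. Of 24 ovarian germline genes that passed, 21 were past the rule, with a median of -4.01, among them yl, the yolk receptor, at 0.373 and 2.45 against 209 and 199, and CycB, a mitotic cyclin, at 2.40 and 4.84 against 322 and 276. The list's exception was grk, a TGF-alpha ligand, at 29.8 and 46.4 FPKM in muscle and 12.2 and 13.6 in whole flies.

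Photoreceptor genes formed another such group. Of 22 phototransduction genes that passed, 15 were past the rule, with a median of -4.78. The main rhodopsin ninaE (3R) had 0.124 and 0.172 FPKM in muscle and 1107 and 1047 in whole flies, a difference of -9.87 ± 0.05, and the arrestin Arr2 0.192 and 0.177 against 448 and 421. The corneal protein gene retinin had 0 reads in both muscle libraries and 6468 and 4847 in whole flies, at least 1780-fold higher against a floor of 3 reads per muscle library. Not all members shared this: norpA, the phospholipase C, had 11.3 and 20.0 FPKM against 19.6 and 24.3.

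Male genes depended on the muscle repeat. Of 54 seminal fluid genes that passed, all were negative and 28 were past the rule, with a median of -3.11. Only 8 seminal fluid genes reached 1 FPKM in muscle repeat 2, so most passed through the whole-fly libraries alone. Their signs are therefore largely set by the filter. Sfp87B had 103 and 0 FPKM in muscle and 992 and 906 in whole flies, and Sfp60F 35.3 and 0 against 654 and 540. Muscle repeat 1 was thus below both whole-fly libraries and above repeat 2. Of 33 testis genes that passed, 0 were past the rule although the median was -2.32. With only 2 testis genes at 1 FPKM in muscle repeat 2, most of these passed through the whole-fly libraries alone as well. Mst84Db, a sperm protein, had 128 and 0.660 FPKM in muscle and 256 and 192 in whole flies. The testis median was -0.09 for muscle repeat 1 against whole-fly repeat 1. Relative to the median of all genes it was 0.47 without muscle repeat 2, the reverse of -1.46 with both.

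Other body parts gave smaller shares. Of 46 digestive enzyme genes, 12 were higher in whole flies and 2, LysP and Mal-B1, in muscle, with a median of -1.49. Mal-A4, a maltase, had 4.56 and 3.62 FPKM against 74.6 and 61.9. The basement membrane collagens Col4a1 and vkg, made by hemocytes and fat body, were past the rule at -2.96 ± 0.11 and -2.93 ± 0.17, while the other 9 hemocyte genes that passed were not. Cuticle proteins had a median of -1.36 with 5 of 36 past the rule, and odorant binding proteins -1.67 with 3 of 24, both against 7.8% of all genes. Cpr72Ec, a cuticle protein, had 0 reads in both muscle libraries and was at least 244-fold higher in whole flies against 3 reads per library. With genes of low level kept in, the cuticle and odorant binding medians lay above that of all genes, by 0.48 and 0.35.

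Of 11 heat shock and chaperone genes that passed, 6 were positive and 5 negative, with 3 past the rule on the whole-fly side and a median of 0.28. Relative to all genes the median turned from 1.15 to -0.92 with genes of at least 5 FPKM. Hsp26 and Hsp27, small heat shock proteins, were past the rule on the whole-fly side, with 30.03 and 14.5 FPKM against 494 and 306 for Hsp26 and 6.21 and 2.35 against 123 and 90.2 for Hsp27. The muscle chaperone genes l(2)efl (an alpha-crystallin) and stv (starvin, a co-chaperone of Z-disc maintenance) went the other way, at 2.18 and 1.95, and all muscle values of both exceeded the whole-fly values. Cytochrome P450 genes (69) and glutathione transferases (31) lay at the median of all genes, at -0.88 and -0.87, with 3 and 2 past the rule on the whole-fly side.

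The yolk protein genes Yp2 and Yp3 reached whole-fly levels in mutant muscle, and fat body genes varied. Yp3, a yolk protein made by fat body and ovary, had 3785 and 9424 FPKM in muscle and 4255 and 3584 in whole flies, and Yp2 2772 and 6390 against 4058 and 3791. The groups of both genes overlapped, with muscle repeat 2 highest. In the same list fit, a female fat body gene, was past the rule on the muscle side, at 168 and 171 against 22.7 and 26.0. Of 9 fat body genes 3 were positive, with a median of -0.22 and a range from -4.15 to 0.65. Relative to the median of all genes the list was higher in muscle, at 0.65, and between 0.21 and 0.85 over 10 alternatives. A higher percentile in muscle was found for 7 of the 9, against 5047 of all 10445 genes. The main lipoprotein gene apolpp stood at -0.22 ± 0.43. Of these 9 only Fbp1 was past the rule, at 1.37 and 0.127 FPKM in muscle against 31.0 and 25.4. The part of fat body RNA in the muscle libraries was not tested.

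The same tissue difference in wildtypes shows how far it is shared. By the same rule 88 of 10544 genes (0.835%) were higher in wildtype muscle and 986 (9.35%) in wildtype whole flies. Of the 31 mutant muscle genes 21 were also past the rule in wildtypes, 67.7% of the mutant and 23.9% of the wildtype list. Of the 815 whole-fly genes 474 were shared, 58.2% and 48.1%. The median of all genes was -0.84 in wildtypes. Sarcomere genes had a wildtype median of 1.78 against 1.29 in mutants, respiratory chain genes 1.49 against 0.69, and glycolysis 1.11 against 0.36.

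The difference between genotypes was tested as the interaction in limma, the mutant minus wildtype effect in muscle less that in whole flies, which forms each effect within a table. Of 8965 genes, 146 (1.63%) were higher and 393 (4.38%) lower by limma at an adjusted p under 0.05, where higher means that the muscle minus whole-fly difference was larger in mutants. The errors given with interactions are those of limma, whose spread is shared by all 4 groups. Repeats differed with an SD of 0.99 log2 units in mutant muscle and 0.25 in mutant whole flies. These errors thus do not measure the spread of mutant muscle alone. The median interaction was -0.03. The split moved with scaling, to 160 and 138 after rescaling to the matched genes, 128 and 258 with quantile scaling and 155 and 193 with limma-voom on recovered reads. Leaving out single libraries gave 6 to 919 higher and 3 to 932 lower, with 6 and 4 without whole-fly wildtype repeat 1, 9 and 7 without whole-fly wildtype repeat 2, 10 and 3 without whole-fly mutant repeat 1, and 32 and 71 without whole-fly mutant repeat 2. Without muscle wildtype repeat 1 the counts were 60 and 151, and without muscle wildtype repeat 2 they were 108 and 167. Without muscle mutant repeat 1 they were 572 and 932, and without muscle mutant repeat 2 they were 919 and 714.

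A larger share of muscle protein genes was called lower than the 4.38% of all genes. Of 34 sarcomere genes 11 were lower and 0 higher, with a median interaction of -0.63. Their median mutant effect was 0.26 in muscle and 0.87 in whole flies, and 19 of the 34 were called higher and 0 lower in mutant whole flies, against 3.39% and 2.29% of all genes. Mlc1 had 1841 and 2293 FPKM in wildtype muscle and 318 and 279 in wildtype whole flies. With the mutant values above, both whole-fly mutants lay over both wildtypes while the muscle groups overlapped, and the interaction was -1.47 ± 0.20 (limma adjusted p = 0.0184). For Act79B it was -1.36 ± 0.22 (limma adjusted p = 0.0293), for TpnC4 -1.54 ± 0.20 (limma adjusted p = 0.0184) and for TpnC47D -2.12 ± 0.16 (limma adjusted p = 0.00702). Mhc did not pass, at -0.15 ± 0.31 (limma adjusted p = 0.787), nor did bt at 1.11 ± 0.50 (limma adjusted p = 0.214). The 11 lower calls became 5 with quantile scaling, 4 after rescaling to the matched genes and 9 with limma-voom. They became 2 with the length trend removed and 0 with a term for repeat number within each tissue (a replicate block). The list median stayed negative in these fits, between -0.66 and -0.35. TpnC4 was not called after that rescaling, with the length trend removed or with the block. The median of all genes was 0.21 after that rescaling. Without whole-fly wildtype repeat 1, whole-fly wildtype repeat 2 or whole-fly mutant repeat 1, 0 sarcomere genes were lower, and without whole-fly mutant repeat 2 or muscle wildtype repeat 2 the counts were 3 and 2. The calls of Act79B, Mlc1 and TpnC4 ended with quantile scaling and without each of the 4 whole-fly libraries. Without muscle wildtype repeat 2 those of Act79B and TpnC4 ended as well. That of TpnC47D ended without either whole-fly wildtype library and without whole-fly mutant repeat 1.

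Energy genes gave a similar count. Of 60 respiratory chain genes 22 were lower, with a median interaction of -0.77 and median effects of -0.20 in muscle and 0.57 in whole flies, and 27 were called higher in mutant whole flies. Cyt-c-p, cytochrome c, stood at -1.25 (limma adjusted p = 0.0133). With the replicate block 0 genes of the respiratory chain, glycolysis or shuttle and glycogen lists were lower. Respiratory chain calls became 9 with quantile scaling, 11 after rescaling to the matched genes, 15 with limma-voom and 1 with the length trend removed, and 0 without whole-fly wildtype repeat 1, whole-fly wildtype repeat 2 or whole-fly mutant repeat 1. Without whole-fly mutant repeat 2, muscle wildtype repeat 1 and muscle wildtype repeat 2 they were 5, 3 and 4, and without muscle mutant repeat 2 they were 38. Of 12 glycolysis genes 6 were lower, with Pfk, phosphofructokinase, at -0.67, but 0 were lower under quantile scaling, rescaling, limma-voom and removal of the length trend, or without any of the whole-fly or wildtype muscle libraries. Of 8 shuttle and glycogen genes 4 were lower, with Gpdh1 at -1.37 and Gpo1 at -1.25, and 0 were lower without whole-fly wildtype repeat 1, whole-fly wildtype repeat 2 or whole-fly mutant repeat 1. Without muscle wildtype repeat 1 the count was 2 of 6. Calcium handling genes, with 11 of 13 positive and a median of 0.62, had 0 calls in limma although 5 had an unadjusted p under 0.05. The count was 0 with limma-voom and 1 after rescaling to the matched genes, and 5 without muscle mutant repeat 1.

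**Figure D4:**
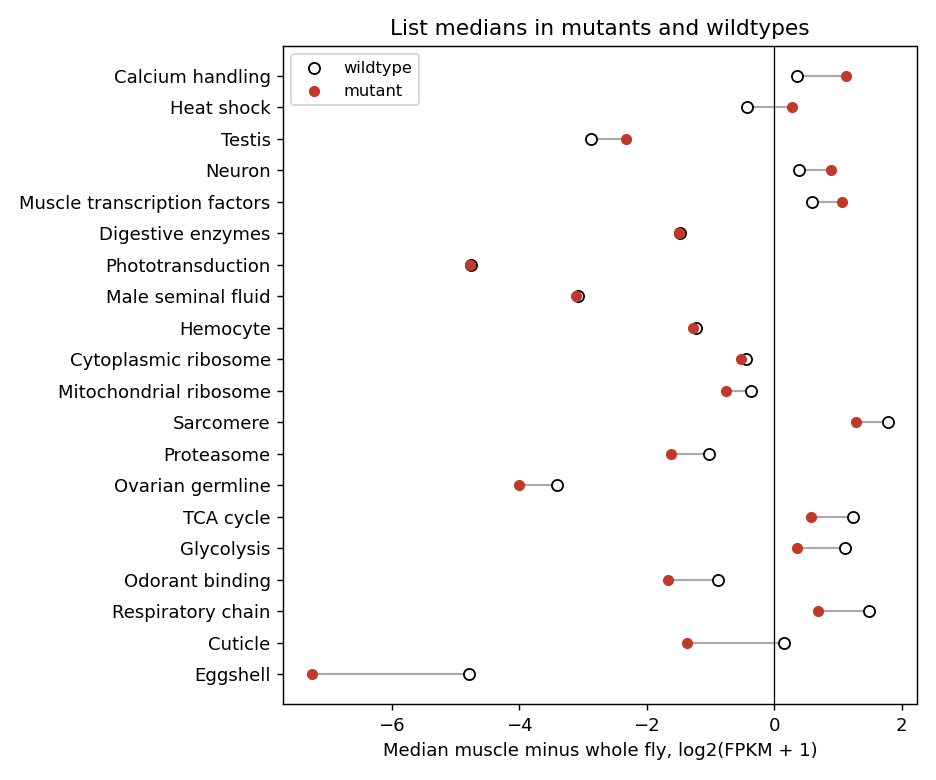
Median log2 difference, muscle minus whole fly, of 20 gene lists in wildtypes (open circles) and mutants (red), ordered by the mutant minus wildtype gap. Sarcomere and respiratory chain medians are lower in mutants (1.29 against 1.78 and 0.69 against 1.49), and that of calcium handling is higher (1.13 against 0.36).

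The smallest p-values of the interaction belonged to digestive and uncharacterised genes. LysD, a lysozyme, had 161 and 68.9 FPKM in mutant muscle and 165 and 117 in mutant whole flies, against 3624 and 2738 in wildtype muscle and 1.16 and 1.89 in wildtype whole flies. A tissue difference of 10.30 in wildtypes was thus -0.39 ± 0.65 in mutants, an interaction of -10.69 ± 0.60 (limma adjusted p = 0.00401). Lysozyme genes of its cluster are near copies, so the split of reads among them is uncertain. The trypsin gammaTry had 2.14 and 2.43 FPKM in mutant muscle and 4.40 and 4.11 in mutant whole flies, against 10.9 and 9.73 and against 206 and 201 in wildtypes. CG17571 and CG7916 had interactions of 4.06 ± 0.16 and 4.18 ± 0.18 (limma adjusted p = 0.00131 for both). Of 43 digestive enzymes tested 7 were higher and 8 lower, against 1.63% and 4.38% of all genes. Leaving out 1 library moved these counts to between 3 and 14 higher and 1 and 10 lower, with 14 and 10 without muscle mutant repeat 2, 5 and 10 without muscle mutant repeat 1, and 3 and 1 without whole-fly mutant repeat 1. They were 3 and 2 without either whole-fly wildtype library, 4 and 2 without whole-fly mutant repeat 2, 5 and 4 without muscle wildtype repeat 1, and 5 and 3 without muscle wildtype repeat 2.

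Of the 31 genes higher in mutant muscle, Arc1, ClC-a, fit, Mal-B1 and Capa also differed between genotypes. Arc1 had 53.1 and 80.4 FPKM in wildtype muscle and 132 and 132 in wildtype whole flies, so muscle was the lower tissue in wildtypes and the higher in mutants, with an interaction of 3.89 ± 0.28 (limma adjusted p = 0.00642). ClC-a had 17.6 and 17.5 FPKM in wildtype muscle against 120 and 214 in mutants, and its interaction was 2.28 ± 0.36 (limma adjusted p = 0.0283). The gene fit, a female fat body gene, was past the rule in both genotypes, with 168 and 171 FPKM in mutant muscle and 22.7 and 26.0 in mutant whole flies. In wildtype whole flies fit had 0.382 and 0 FPKM, from 4 and 0 reads, and its interaction was -4.66 ± 0.52 (limma adjusted p = 0.0133). The interaction of fit was -7.03 with a pseudocount of 0.1 and -7.61 with limma-voom, where its call ended (limma-voom adjusted p = 0.155). With a replicate block the calls of fit, ClC-a, Mal-B1 and Capa ended and that of Arc1 stayed. The calls of Arc1, ClC-a and fit ended without either whole-fly wildtype library, those of Arc1 and ClC-a also without whole-fly mutant repeat 1, and that of ClC-a without whole-fly mutant repeat 2 or either wildtype muscle library. The interaction was also negative for Mal-B1, at -2.02 ± 0.32 (limma adjusted p = 0.0283), and for Capa, at -1.14 ± 0.23 (limma adjusted p = 0.0469). Both calls ended with the length trend removed, without each of the 4 whole-fly libraries and without muscle wildtype repeat 2, and that of Capa also with quantile scaling, rescaling, limma-voom or without muscle wildtype repeat 1. Proc did not pass, at 0.28 ± 0.19 (limma adjusted p = 0.38).

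Position and length gave a last pair of descriptions. The 69 genes of chromosome 4 that passed had a median of 0.23 in mutants, above the -0.87 of all genes, with 0 past the rule. In wildtypes the same genes also lay above all genes, at 0.003 against -0.84. On the X chromosome 9.63% of genes were past the rule on the whole-fly side, and on 2L, 2R, 3L and 3R 6.997% to 8.17%. The signed log2 difference rose with gene length, with Spearman's rho at 0.20 over 10445 genes that are no independent replicates. The rho was 0.06 for muscle repeat 1 and 0.26 for repeat 2 against the whole-fly mean, and 0.11 in wildtypes. The medians ran from -1.03 in the shortest eighth to -0.34 in the longest, so the typical gap to whole flies was smaller in the longest genes. The titin-like genes bt and sls, of 28019 and 58996 bases, lie in the longest eighth and were higher in muscle repeat 2. The part of length in the differences was not tested beyond the fit with a length trend removed.

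**Figure D5:**
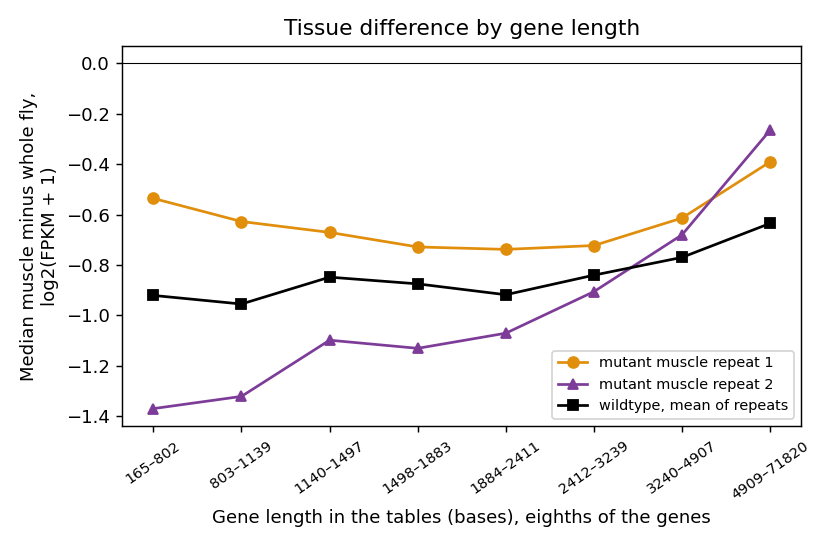
Median log2 difference, muscle minus the whole-fly mean, in eighths of the genes by length in bases, for each mutant muscle repeat and for wildtypes. Repeat 2 rises from -1.37 in the shortest genes to -0.27 in the longest, while repeat 1 stays between -0.74 and -0.39.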

How the data were processed

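Adult muscle and adult whole flies, wildtype and mutant, gave 8 libraries in 4 groups of 2. The values are FPKM as deposited by the authors in 2 tables with different annotations, scaled separately. For aligner, counter, strand and filters, the sources used here give nothing. A mouse build is named in the submitters' processing notes, which goes against the fly identifiers in the tables, and it was not used. Coordinates are those of the tables, 1-based. The whole-fly columns name genotype and repeat only and were taken as whole flies since every muscle sample has a column in the other table.

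Multiplied by length, 100% of the values above 0 were whole multiples, to 0.1 reads, of what 1 read is worth in that library, which gave the read numbers. Symbols shared by both tables numbered 13432. Genes at other loci (4) or overlapped in only 1 table (3) were left out. Lengths were identical for 99.7% of the 13425 matched genes.

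Genes with at least 1 FPKM in both libraries of a tissue of that genotype were described by the 4-fold rule, with FPKM + 1. The interaction was tested with limma 3.58.1 in R 4.3.3 (mean-variance trend, log2(FPKM + 1), all 8 libraries, Benjamini-Hochberg at 0.05) for genes with at least 1 FPKM in at least 2 of 4 libraries of each tissue, and was tested on simulated data. limma-voom on the recovered reads was an alternative; the count model foreseen for raw counts was not used because the tables hold FPKM. Other alternatives changed the pseudocount, filter, fold, scaling, matching and libraries, removed a length trend or added a replicate block.

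Named genes were the 3 markers, the 10 most abundant per tissue, the 12 with the largest difference past the rule per direction, up to 3 members per list past the rule or otherwise the 2 with the largest difference, and the 5 smallest interaction p-values. Other list members and single genes printed were chosen after their values were seen. The comparison, its markers and the 37 lists were chosen with earlier results of these data known.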

Additional observations from a re-analysis of the deposited data

Results flagged for a closer look

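For 19 named genes the tissue difference departed from that in wildtypes by the limma interaction (adjusted p under 0.05). Muscle protein genes had negative interactions, at -1.36 for Act79B, -1.47 for Mlc1, -1.42 for Mlc2, -1.54 for TpnC4 and -2.12 for TpnC47D. In the same order, their mutant minus wildtype effects in whole flies were 1.86, 1.44, 1.53, 1.21 and 1.37. The same effects in muscle ran from -0.76 for TpnC47D to 0.51 for Act79B. Over 17 alternative settings TpnC47D stayed past the threshold in 13, Mlc1 in 10, TpnC4 in 8, and Act79B and Mlc2 in 7 each. Fat body and cuticle genes had negative interactions as well, at -4.66 for fit, -4.99 for Fbp1 and -7.67 for Cpr92F. Their whole-fly effects were positive, at 4.43, 4.80 and 6.13. Further negative interactions were those of the cytochrome P450 genes Cyp313a1 at -2.66 and Cyp4d1 at -1.80. The lysozyme LysD stood at -10.69 and the uncharacterised CG31313 at -2.27.

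Positive interactions were found for Arc1 at 3.89, the chloride channel ClC-a at 2.28 and the urate oxidase Uro at 3.07. The trypsins iotaTry and gammaTry stood at 1.90 and 3.50, and the uncharacterised CG17571 and CG7916 at 4.06 and 4.18. Of the 19 genes, CG17571, gammaTry and LysD passed in 17 of 17 alternatives and CG7916 in 15 of the 15 in which it was tested.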

How the results depend on the processing

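Against 31 genes higher in muscle and 815 in whole flies, scaling to the same median gave 213 and 337, rescaling to the matched genes 77 in muscle, recovered reads without length 74 in muscle, a fold of 2 300 and 2910, and a fold of 8 4 and 258. Leaving out 1 library gave 32 to 100 in muscle and 875 to 1932 in whole flies, and without muscle repeat 1 the counts were the highest, 100 and 1932. Against 146 higher and 393 lower interactions, removing the length trend left 76 and 94, quantile scaling 258 lower, rescaling to the matched genes 138 lower and limma-voom 193 lower. Leaving out 1 library gave 6 to 919 higher and 3 to 932 lower: 6 and 4 without whole-fly wildtype repeat 1, 9 and 7 without its repeat 2, 10 and 3 without whole-fly mutant repeat 1, 32 and 71 without its repeat 2, 60 and 151 without muscle wildtype repeat 1, 108 and 167 without its repeat 2, 572 and 932 without muscle mutant repeat 1, and 919 and 714 without its repeat 2. The cause of these shifts was not tested. In each such fit the lone library is assumed to vary like the other groups.

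The labels number the repeats in each group but do not tie equal numbers together, and same-numbered deviations correlated at 0.43 in muscle and -0.24 in whole flies. A replicate block within each tissue left 4 higher and 1 lower interaction.

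Of 37 list medians, 27 kept their side of the median of all genes in the alternatives run, and 10 changed it in at least 1. The count of lists above that median and the count of named genes past the rule stayed within 1.5 times. Of the named tissue differences under these settings, 938 moved by less than the spread between repeats and 252 by more. Of the interaction settings of flagged genes, 207 kept the call and 101 lost it. Depth limits weak genes: 0 reads in muscle does not show absence.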
